A study of Homo sapiens with 4 samples.

Results

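The matrix metalloproteinases (MMPs) and the ADAMTS proteases are the zinc enzymes that cut extracellular matrix, and 40 of their genes (21 MMP and 19 ADAMTS genes) were examined for binding of SOX2 and of its DNA-binding domain alone in human fibroblasts. The genes were taken as a named list, and a binding interval was assigned to a gene when it overlapped the gene body extended by 10 kb on either side by at least 1 bp (hg19, GENCODE release 44 mapped to GRCh37). All 40 genes were found in the annotation among 20163 protein-coding genes, and 126 of the 58827 distinct intervals in the series fell in their windows.

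The cells were BJ, an established human foreskin fibroblast line. The protein was mapped by CUT&RUN, in which an antibody tethers a nuclease to a chromatin protein so that the DNA around it is cut free and sequenced. An antibody to the V5 tag was used in both groups, so it reports on the introduced protein and not on endogenous SOX2. There were 4 samples. The SOX2 group (2 samples) expressed V5-tagged full-length SOX2 ectopically for 48 h, and the SOX2-DBD group (2 samples) expressed the V5-tagged DNA-binding domain for the same time. The promoter and vector that drove expression are not given in the labels. The peak list deposited with the replicate 1 sample was analysed in each group, together with a down-sampled list of SOX2. The list names give no replicate, and whether reads of both replicates were pooled is not stated. No separate list of the second replicates and no untransduced or non-specific antibody control was analysed here. No value below therefore has an error between replicates, and none was tested between groups. Binding lists do not measure expression, so the fibroblast label was not checked against marker genes.

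MMPs are secreted or membrane-anchored enzymes made as inactive precursors, and together they cleave collagens, gelatin, elastin and many other matrix proteins. ADAMTS proteases are secreted and carry thrombospondin repeats that place them in the matrix, where they trim procollagens, aggrecan, versican and fibrillin-linked proteins. Fibroblasts are a principal source of both in connective tissue, and several MMP genes are well-known targets of the AP-1 transcription factors. SOX2 is a pioneer factor, able to bind its sites in compacted chromatin, and is best known from pluripotent cells and neural progenitors.

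Intervals were classed as SOX2-only (in the SOX2 list without overlap in the other), shared (in both lists) or DBD-only (in the SOX2-DBD list without overlap in the SOX2 list). The member windows held 86 SOX2-only, 37 shared and 3 DBD-only intervals. Each of the 14300 shared intervals of the series carried the same positions and total signal in both lists, and the group in which those values were measured is not stated. Total signal, the authors' deposited value for an interval, has no stated normalization, and in the results below it was compared only between intervals of the same class.

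The sequences that follow show what lay under the intervals at member genes. They are the 200 bp at the centre of each interval, GRCh37 (hg19), written 5′ to 3′ on the minus strand, which is the coding strand of all the genes shown. Capitals mark the SOX core motif (ACAAAG or ACAATG, searched on both strands) and the AP-1 motif (TGACTCA, searched on both strands, where it reads TGAGTCA). These motifs do not overlap in any of the windows printed. The first set lies at transcription start sites, in the cluster of MMP genes on chromosome 11, and is shown because intervals at a canonical start were found at 3 members. MMP7 (shared, chr11:102401487-102401686) had a SOX core match 178 bp and an AP-1 match 67 bp upstream of the start. MMP10 (shared, chr11:102651448-102651647) and MMP27 (SOX2-only, chr11:102576508-102576707) had neither motif in these windows.
MMP7 start: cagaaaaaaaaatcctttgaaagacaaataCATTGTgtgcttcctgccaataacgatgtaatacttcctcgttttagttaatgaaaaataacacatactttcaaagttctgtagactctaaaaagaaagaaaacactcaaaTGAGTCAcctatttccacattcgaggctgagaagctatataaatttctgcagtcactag
MMP10 start: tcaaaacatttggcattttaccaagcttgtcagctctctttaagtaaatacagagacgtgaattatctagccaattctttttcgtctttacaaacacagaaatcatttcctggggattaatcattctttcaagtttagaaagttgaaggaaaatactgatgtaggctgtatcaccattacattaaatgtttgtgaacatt
MMP27 start: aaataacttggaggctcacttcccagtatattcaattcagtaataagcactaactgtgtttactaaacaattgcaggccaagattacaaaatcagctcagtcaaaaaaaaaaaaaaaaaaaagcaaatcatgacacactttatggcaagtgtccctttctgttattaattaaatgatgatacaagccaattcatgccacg

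The next set holds shared intervals in introns in which both motifs were present, from ADAMTS20 (chr12:43801791-43801990), ADAMTS12 (chr5:33691109-33691308), ADAMTS6 (chr5:64448097-64448296) and ADAMTS2 (chr5:178569919-178570118). Between the SOX core and the AP-1 match there were 65 bases in ADAMTS20, 67 in ADAMTS12, 85 in ADAMTS6 and 4 in ADAMTS2. The spacing therefore varied widely between them. A further interval of this kind, in MMP16, is not printed, and its spacing is not given.
ADAMTS20 intron: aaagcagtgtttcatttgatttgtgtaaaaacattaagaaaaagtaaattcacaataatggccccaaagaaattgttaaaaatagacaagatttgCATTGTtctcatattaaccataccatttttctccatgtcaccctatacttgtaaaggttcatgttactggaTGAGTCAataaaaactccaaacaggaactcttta
ADAMTS12 intron: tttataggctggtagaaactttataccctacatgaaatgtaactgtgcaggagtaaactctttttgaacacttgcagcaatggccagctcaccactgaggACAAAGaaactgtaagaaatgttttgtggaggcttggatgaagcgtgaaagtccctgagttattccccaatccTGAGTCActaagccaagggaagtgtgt
ADAMTS6 intron: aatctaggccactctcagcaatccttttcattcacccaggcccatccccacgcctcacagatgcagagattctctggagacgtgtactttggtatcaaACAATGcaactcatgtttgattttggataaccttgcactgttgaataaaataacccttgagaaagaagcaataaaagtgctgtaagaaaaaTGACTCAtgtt
ADAMTS2 intron: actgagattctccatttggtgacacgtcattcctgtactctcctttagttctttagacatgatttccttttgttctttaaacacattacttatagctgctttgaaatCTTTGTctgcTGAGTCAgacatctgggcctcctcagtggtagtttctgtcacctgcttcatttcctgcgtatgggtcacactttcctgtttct

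The last set is shown because these intervals had the highest total signal of their class at member genes. The shared one lies in MMP12 (chr11:102738998-102739197, total signal 5457) and the SOX2-only one in ADAMTS2 (chr5:178676013-178676212, total signal 10547). Each window had 1 SOX core match and no AP-1 match. The ADAMTS2 interval was also the widest at member genes (2348 bp), and the part of width in ranks by total signal was not tested.
MMP12 highest shared: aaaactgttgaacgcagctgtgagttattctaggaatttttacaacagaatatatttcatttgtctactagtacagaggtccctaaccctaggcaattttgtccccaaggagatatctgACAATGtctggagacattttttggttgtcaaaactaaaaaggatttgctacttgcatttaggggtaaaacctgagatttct
ADAMTS2 highest SOX2-only: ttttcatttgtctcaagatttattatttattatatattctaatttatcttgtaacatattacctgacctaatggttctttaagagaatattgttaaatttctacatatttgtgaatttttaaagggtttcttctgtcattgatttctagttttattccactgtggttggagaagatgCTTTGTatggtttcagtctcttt

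At least 1 interval was found at 26 of the 40 members (65%, Wilson 95% confidence interval 49.5 to 77.9), beside 48.2% of all protein-coding genes. By class, 24 members had a SOX2-only interval beside 43.8% of protein-coding genes, 13 had a shared interval beside 22.9%, and 2 had a DBD-only interval beside 2.48%. MMP genes (14 of 21) and ADAMTS genes (12 of 19) had an interval at similar frequency. These intervals on shares cover counting error only, and genes are not replicates.

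The share with an interval rose with gene length. Among genes with a body over 100 kb, 11 of 12 members had an interval, beside 84.5% of protein-coding genes of that length. In the 25 to 100 kb band the count was 5 of 9, beside 61.1%. Under 25 kb it was 10 of 19 (52.6%, 31.7 to 72.7), beside 25.2%. Short members were thus the band in which the share lay farthest above the background, and 7 of these 10 lay in the MMP cluster on chromosome 11. Of the 10, MMP1, MMP8, MMP10, MMP11 and ADAMTS1 had intervals in the 10-kb flanks only, with none overlapping the gene body. Cluster windows also overlap, so these genes are not separate calls. The single MMP8 interval, for example, is the one at the MMP27 start. The 12 long genes held 97 of the 126 intervals.

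**Figure D1:**
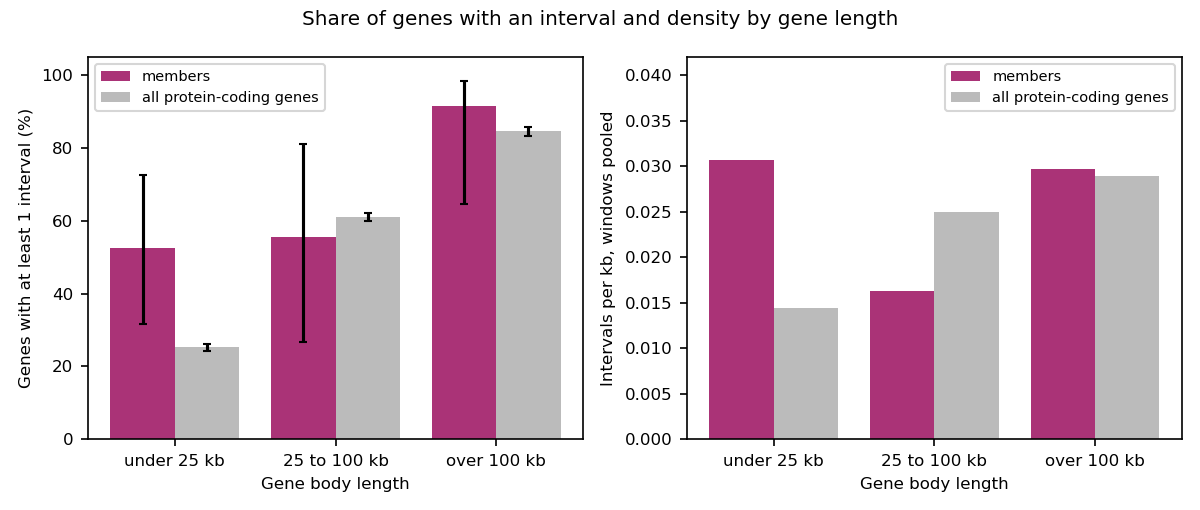
The share of genes with at least 1 interval (left, percent, with Wilson 95% confidence intervals) and the intervals per kb of pooled window (right) are plotted for members and for all protein-coding genes in 3 bands of gene body length. Members under 25 kb stood at 52.6% against 25.2%, while in the longest band the shares were 91.7% and 84.5%. Most of the short members with an interval lay in the MMP cluster on chromosome 11.

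Per kb of window, the members held 0.0280 intervals (126 in 4496 kb), beside 0.0262 over all protein-coding windows. By band the pooled density was 0.0297 per kb in long members against 0.0289 in long genes at large, 0.0163 against 0.0250 in the middle band, and 0.0307 against 0.0144 in the short band. Of the 19 intervals in the short band, MMP21 held 2, and MMP11 and ADAMTS1 held 1 each. The others lay in windows of the MMP cluster on chromosome 11, so the short-band value mainly describes that cluster and not short members in general. Pooled MMP windows were denser (0.0387 per kb) than pooled ADAMTS windows (0.0243 per kb). Of the 45 MMP intervals, MMP16 held 19, and member windows in the cluster on chromosome 11 held another 19. Of the 21 MMP genes, 7 had none. The pooled MMP value therefore mainly describes MMP16 and that cluster, and not each gene of the family. ADAMTS intervals were also concentrated, with 28 of 81 in ADAMTS6. An exact Poisson interval on the count put the member density between 0.0233 and 0.0334 per kb, which includes the value for all protein-coding genes. The median over members was 0.0157 per kb, against 0 over all protein-coding genes, of which more than 50% had no interval.

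The distribution among members was uneven. ADAMTS6, MMP16, ADAMTS12 and ADAMTS3 together held 75 intervals in 1366 kb of window (0.0549 per kb). The other 36 members held 51 in 3130 kb (0.0163 per kb).

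**Figure D2:**
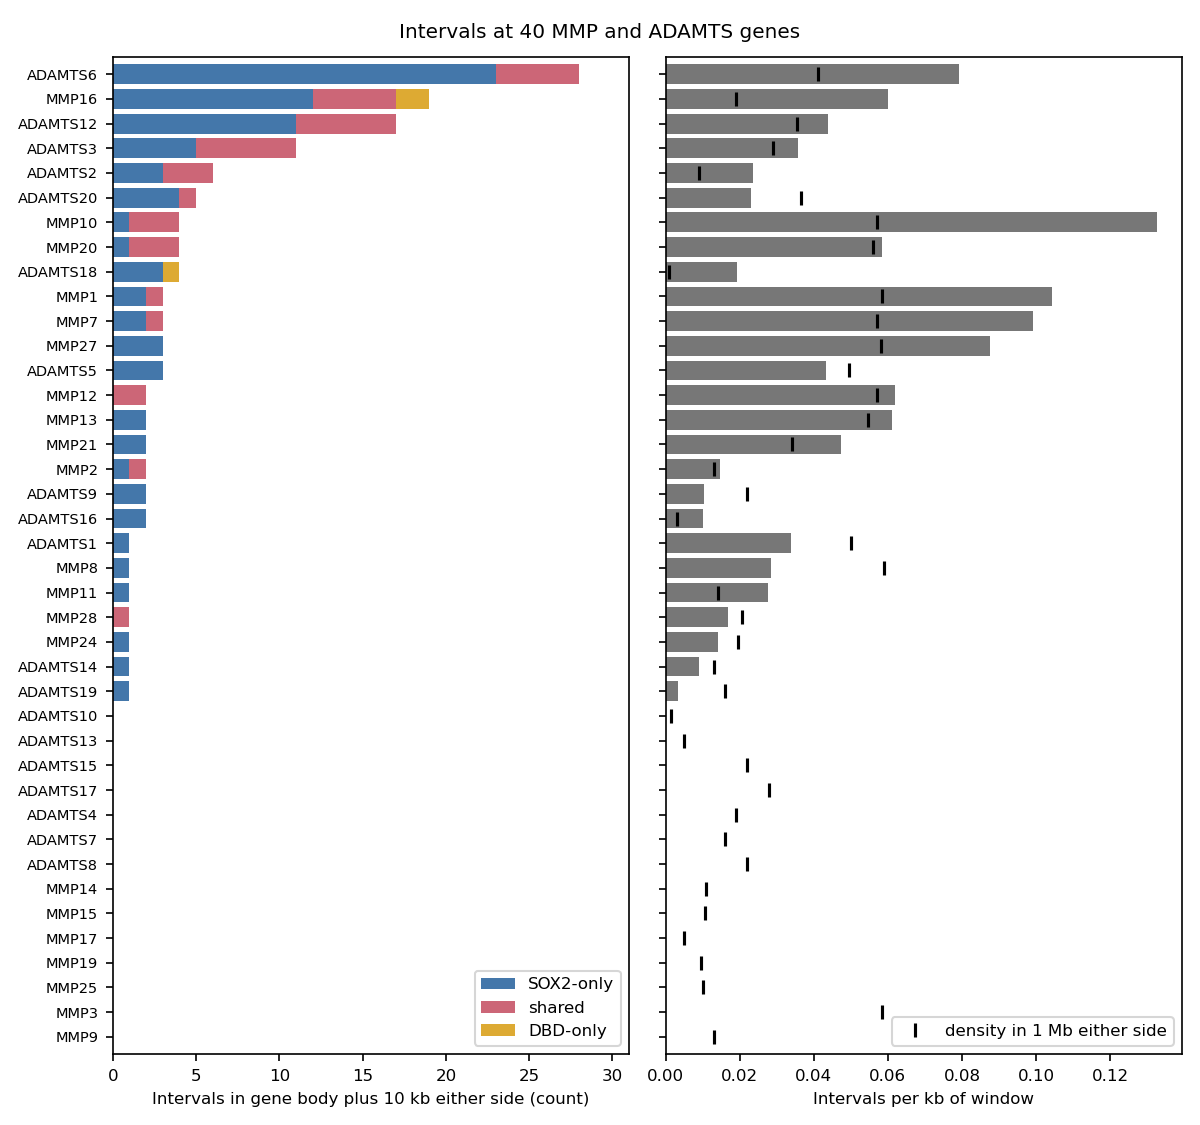
The left panel gives the intervals in each member's window, coloured by class, and the right panel the intervals per kb of that window, with a black tick for the density in the 1 Mb on either side. ADAMTS6 stood highest by count (28 intervals) and MMP10 by density (0.133 per kb), and 14 members had none.

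ADAMTS6, a protease associated with fibrillin microfibrils (chr5:64444565-64777747), had 28 intervals, of which 23 were SOX2-only and 5 shared. Its SOX2 list count was thus 28 and its SOX2-DBD list count 5. The window held 0.0793 intervals per kb, above the 0.0410 per kb in the surrounding 1 Mb on either side, and 93.6% of long protein-coding genes had a lower density. All 28 centres lay in introns, over 14 different canonical introns. The intervals began 7.65 kb from the canonical start and ran to 329.6 kb, with a median gap of 11.9 kb. Intron 7 (117.4 kb) held 8 intervals and intron 9 (29.2 kb) held 5, all 13 SOX2-only. The shared ones lay in the downstream part of the gene, between 218.4 and 329.6 kb from the start, and 3 of them were in intron 20 (17.6 kb).

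MMP16, which encodes a membrane-type MMP able to activate the precursor of MMP2, had 19 intervals in a gene of 296 kb on chromosome 8. The SOX2 list contributed 17 and the SOX2-DBD list 7, with 12 SOX2-only, 5 shared and 2 DBD-only. The density was 0.0601 per kb in the window and 0.0190 per kb in the surrounding 1 Mb on either side. Of long protein-coding genes, 83.4% had a lower density than MMP16. Its first intron (129.8 kb) held 10 intervals, including 4 of the shared ones and 1 of the DBD-only ones. The nearest interval to the canonical start was 28.2 kb downstream of it. MMP16 and ADAMTS18 were the members with DBD-only intervals.

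ADAMTS12 (chr5:33523640-33892124), whose product cleaves cartilage oligomeric matrix protein, had 17 intervals (11 SOX2-only, 6 shared) at 0.0438 per kb, close to the 0.0355 per kb around it. Its window was denser than those of 68.7% of long protein-coding genes. Its second intron (129.6 kb) held 6 of them, and 3 of those were shared. One SOX2-only interval there consisted to 57.4% of 31-base words found at several places in GRCh37, the highest value at any member. ADAMTS3 (chr4:73146686-73434938), a procollagen N-propeptidase that also processes the lymphatic growth factor VEGF-C, had 11 intervals at 0.0357 per kb, with 0.0290 per kb around it. Its window was denser than those of 59.9% of long protein-coding genes. Shared intervals (6) outnumbered SOX2-only ones (5) there. Its introns 3 and 4, 133.5 and 75.1 kb long, held 8 of the 11. One of the shared intervals was only 48 bp wide.

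ADAMTS2 (chr5:178537854-178772462), which removes the N-propeptide of type I procollagen, had 6 intervals, 3 SOX2-only and 3 shared, at 0.0236 per kb against 0.00900 per kb around it. Its window was denser than those of only 45.6% of long protein-coding genes. Intron 3 (65.2 kb) held 3, among them the SOX2-only interval of highest total signal at any member (10547, 2348 bp wide), whose central sequence is printed above. ADAMTS20 (chr12:43747669-43946006), which cleaves versican, had 5 intervals in 5 different introns, 4 SOX2-only and 1 shared. Its density of 0.0229 per kb was below the 0.0365 per kb of its surroundings, and 44.8% of long protein-coding genes had a lower one. The shared interval, with both motifs, ranked 2 of 37 in total signal (5023) among shared intervals at members.

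**Figure D3:**
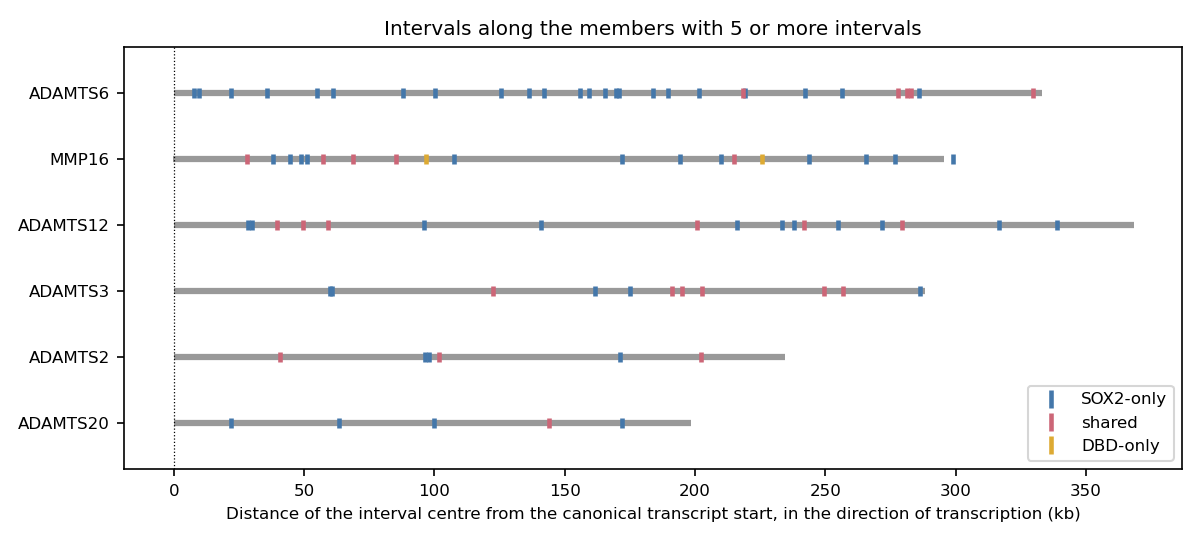
Each grey bar is the body of a member with 5 or more intervals, drawn by distance in kb from its canonical start, and ticks mark interval centres coloured by class. No centre lies within 7 kb downstream of the canonical start in these 6 genes, the nearest being at 7.65 kb in ADAMTS6.

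The MMP cluster on chromosome 11 joins 9 members within 455 kb (chr11:102381239-102836461, window flanks included) in the order MMP7, MMP20, MMP27, MMP8, MMP10, MMP1, MMP3, MMP12 and MMP13. All 9 are transcribed from the minus strand. The region held 21 intervals, 12 SOX2-only and 9 shared, of which 19 lay in member windows. Its density was 0.0461 per kb, below the 0.0590 per kb of the 1 Mb on either side, and both values exceeded the 0.0262 per kb of all protein-coding windows. Of its SOX2 intervals 42.9% were shared (24.5 to 63.5), beside 24.7% in the series. Windows of neighbouring genes overlap here, and 3 intervals were counted for more than 1 member.

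Within the cluster the stromelysin MMP10 (chr11:102641233-102651359) had the highest density of all members, 0.133 per kb, from 4 intervals of which 3 were shared. None of them overlapped the gene body. The one at its start was shared and ended 14 bp upstream of the canonical start, reaching 363 bp upstream. MMP1 (chr11:102660132-102668891), the interstitial collagenase, followed at 0.104 per kb with 3 intervals, 2 of which it shares with the MMP10 window, and none overlapped its body either. MMP7 (chr11:102391239-102401481), the small secreted enzyme matrilysin, had 3 intervals at 0.0992 per kb. Its shared interval spanned the canonical start, from 282 bp upstream to 65 bp downstream, and had a total signal of 2429.

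MMP27 (chr11:102562218-102576500) had 3 SOX2-only intervals at 0.0875 per kb, and one of them reached from 459 bp upstream to 244 bp downstream of its start. That interval also fell in the window of MMP8, the neutrophil collagenase, as the single interval there. MMP20, the enamel protease, had 4 intervals (3 shared, all intronic, and 1 SOX2-only centred 1.53 kb upstream of the start). MMP12, the macrophage elastase, had 2 intervals, both shared and both intronic, and the one in intron 4 had the highest total signal of any shared interval at members (5457). MMP13, a collagenase, had 2 SOX2-only intervals. MMP3, the stromelysin between MMP1 and MMP12, had none in a window of 27.8 kb.

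**Figure D4:**
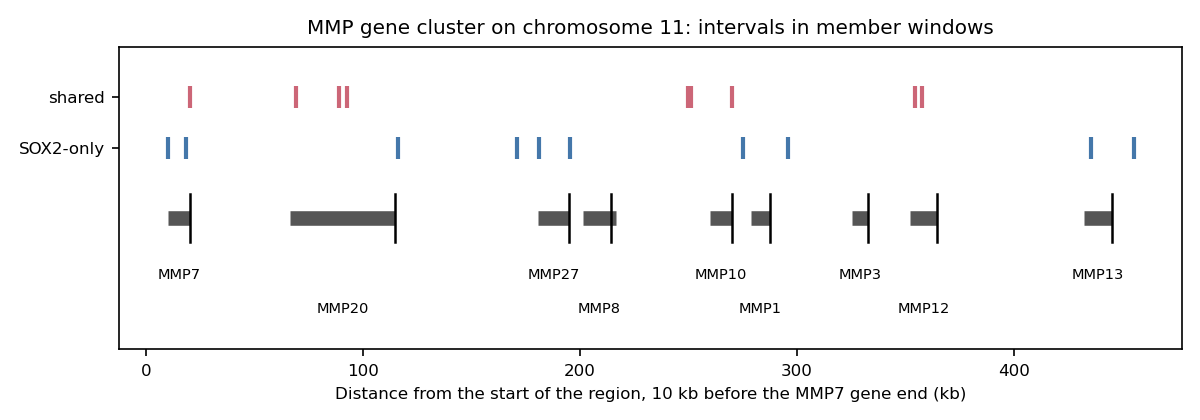
Gene bodies of the 9 clustered MMP genes are drawn in grey by distance in kb along the region, with a vertical line at each canonical start, and ticks above mark the centres of SOX2-only and shared intervals in member windows. Shared intervals lay at the starts of MMP7 and MMP10 and a SOX2-only interval at the start of MMP27, while no tick lies over MMP3.

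By role, the 3 collagenases (MMP1, MMP8, MMP13) all had an interval in their windows, 6 distinct ones of which 1 was shared. An interval was present at 48.2% of all protein-coding genes and at 25.2% of those under 25 kb, as these 3 are. The intervals of MMP1 and MMP8 lay in the flanks only, and some also fell in windows of neighbouring MMP genes, so the 3 are not separate calls. Of the gelatinases, MMP2, which fibroblasts commonly secrete, had 2, while MMP9 had none. The MMP2 intervals were a SOX2-only one in an intron of another annotated transcript, centred at -79.7 kb relative to the canonical start, and a shared one beyond its end with its centre inside LPCAT2. Of the 6 membrane-type MMPs, MMP16 and MMP24 (1 SOX2-only interval) had one and MMP14, MMP15, MMP17 and MMP25 had none. Among the remaining MMPs, MMP21 had 2 SOX2-only intervals, both with centres that also lie in EDRF1, MMP28 had 1 shared, MMP11 had 1 SOX2-only with its centre in SMARCB1, and MMP19 had none.

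Of the 7 proteoglycan-cleaving ADAMTS genes, 4 had an interval (57.1%), beside 48.2% of protein-coding genes. ADAMTS5 had 3 intervals, ADAMTS9 had 2 and ADAMTS1 had 1, all SOX2-only, at 0.0434, 0.0104 and 0.0337 per kb, and ADAMTS4, ADAMTS8 and ADAMTS15 had none. With ADAMTS20, this group of 7 held 11 intervals, 1 of them shared (9.09% of its SOX2 intervals, 1.62 to 37.7). The 3 procollagen N-propeptidases (ADAMTS2, ADAMTS3, ADAMTS14) all had intervals, 18 in total, and 9 of those were shared (50%, 29.03 to 70.97). ADAMTS2 and ADAMTS3 are over 100 kb long, where 84.5% of protein-coding genes had an interval. ADAMTS14 is in the 25 to 100 kb band, where 61.1% had one. The single one in ADAMTS14 was SOX2-only. The confidence intervals of the shared portions in these role groups overlap.

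The counts of the 4 fibrillin-associated genes ran from 0 to 28. ADAMTS6 had 28 intervals, ADAMTS19 (278.4 kb) had 1, and ADAMTS10 and ADAMTS17 had none. ADAMTS17 was the longest member, with a body of 370.6 kb, and 84.5% of protein-coding genes over 100 kb had at least 1 interval. The 1 Mb on either side of ADAMTS17 held 56 intervals (0.0280 per kb), so the empty window lay in a stretch that was not empty. ADAMTS7 of the COMP-cleaving pair and ADAMTS13, which cleaves von Willebrand factor, also had none. ADAMTS16 had 2 SOX2-only intervals, one of them centred 4.59 kb upstream of its start.

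ADAMTS18 (chr16:77281710-77468931) stood in the opposite setting to ADAMTS17. It had 4 intervals, 3 SOX2-only and 1 DBD-only, in a window of 207.2 kb (0.0193 per kb), while the 1 Mb on either side held 2 (0.00100 per kb). The DBD-only interval was intronic, 1582 bp wide, with a total signal of 4611. One of the SOX2-only intervals, centred in an exon and 1566 bp wide, ranked 3 of 86 in total signal in its class at members (6611).

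Inside the member windows, 103 of the 126 centres lay in introns of the member (81.7%, 74.1 to 87.5), 7 in exons, 8 upstream and 8 downstream. Within 1 kb of any annotated start of the member there were 9 centres (7.14%, 3.80 to 13.0), beside 6.55% in all protein-coding windows. Of these 9, 6 were shared, at MMP7, MMP10, MMP28, ADAMTS3 and ADAMTS6 (2 intervals), and 3 were SOX2-only, at MMP27 and ADAMTS6 (2 intervals). As shares of each class these were 16.2% (7.65 to 31.1) of shared and 3.49% (1.19 to 9.76) of SOX2-only intervals, beside 7.89% and 6.02% in all protein-coding windows. Within 10 kb of a start there were 35 centres (27.8%, 20.7 to 36.2), beside 44.96% in all protein-coding windows. The starts at ADAMTS3, ADAMTS6 and MMP28 belonged to other transcripts than the canonical one.

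The share of SOX2 intervals that were also in the SOX2-DBD list was 30.1% at members (37 of 123, 22.7 to 38.7). It was 23.4% in all protein-coding windows and 24.7% in the series, both inside the members' interval. At MMP genes the share was 37.2% (24.4 to 52.1) and at ADAMTS genes 26.2% (17.9 to 36.8).

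Widths and signal at members were near those of the series. The median width was 585 bp for SOX2-only and 415 bp for shared intervals, beside 559 and 373 bp in the series. Shared intervals were as narrow as 1 bp in the series. At MMP28, ADAMTS2, ADAMTS3 and MMP16 the region of maximum signal of some shared intervals reached outside the interval, which no SOX2-only interval at members showed. How the bounds of shared intervals were set is not stated, and its part in class widths and centre windows was not tested. The median total signal was 2472 and 2529, beside 2278 and 2742. The 3 DBD-only intervals were 937 to 1582 bp wide with total signals of 4348 to 4854. Of such repeated 31-base words there were none in 92 of the 126 intervals and more than 50% in 1.

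The SOX core motif was present in the central 200 bp of 42 of 86 SOX2-only intervals (48.8%, 38.6 to 59.2) and 15 of 37 shared ones (40.5%, 26.3 to 56.5). The windows 10 kb downstream held it in 20.9% (13.7 to 30.7) and 29.7% (17.5 to 45.8). In the whole series the shares at the centre were 46.9% and 48.3%. The AP-1 motif was present in 5 of 86 SOX2-only (5.81%, 2.51 to 12.9) and 7 of 37 shared intervals (18.9%, 9.48 to 34.2), beside 6.59% and 16.9% in the series. The confidence intervals of both classes overlap at members, and downstream windows held this motif in 5.81% and 2.70%. Both motifs were found together in 6 of 37 shared and 1 of 86 SOX2-only windows, or 16.2% and 1.16%, beside 8.20% and 2.82% in the series. The shared ones were at MMP7, MMP16, ADAMTS2, ADAMTS6, ADAMTS12 and ADAMTS20. Of the 3 DBD-only windows, 1 held the SOX core motif, in ADAMTS18, and 1 the AP-1 motif, in MMP16. Mean GC content was 33.2% for windows of the SOX2-only class and 36.9% for the shared class at members, and its part in these shares was not tested.

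**Figure D5:**
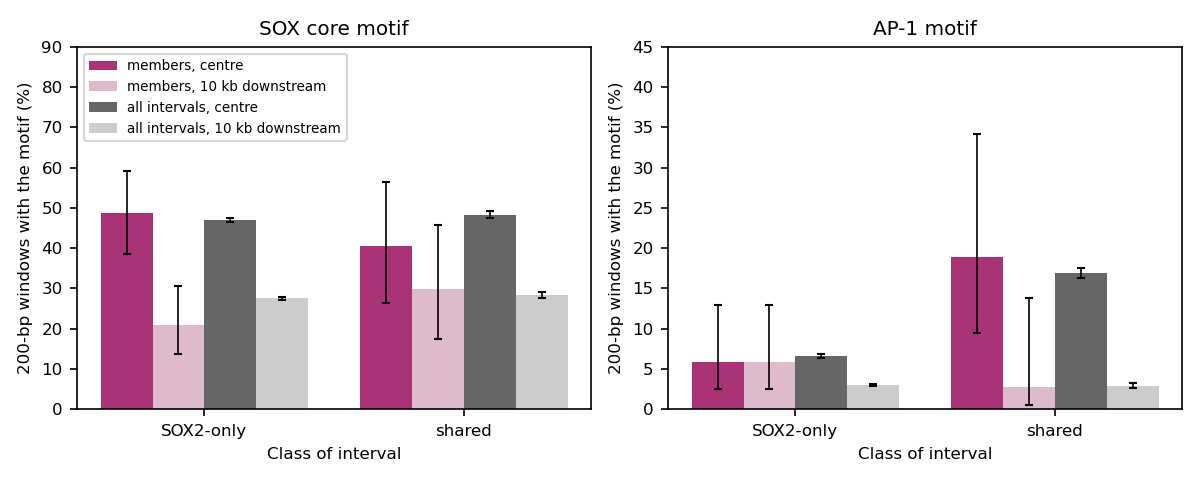
Bars give the percent of 200-bp windows with the SOX core motif (left) or the AP-1 motif (right), at interval centres and 10 kb downstream, for members and for all intervals of the series, by class. Error bars are Wilson 95% confidence intervals, and those of the 37 shared intervals at members are wide, 9.48 to 34.2% for AP-1.

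Promoter sequences of RefSeq (GRCh38.p14, spanning the annotated start and mostly upstream of it) were matched for 22 of the 40 members, with 2 entries for ADAMTS10. The SOX core motif was in 4 of these 23 promoters (17.4%), those of MMP7, MMP10, ADAMTS6 and ADAMTS19, beside 20.1% of promoters of protein-coding genes. The AP-1 motif was in 1, MMP7 (4.35% beside 4.04%). The MMP10 start interval held 1 SOX core match over its full 350 bp, outside the window printed above. MMP7 was thus the matched member with both motifs in its promoter (1 of 23, beside 248 of 21579 promoters of protein-coding genes). Its promoter and the start window printed above cover much the same bases. The motifs there are therefore not a finding separate from those of its shared start interval.

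Other genes of matrix proteolysis were counted by the same rule, 34 in all, and 13 of them had an interval, beside 48.2% of protein-coding genes. Of the inhibitors, RECK had 8 intervals (5 shared), while TIMP1, TIMP2, TIMP3 and TIMP4 had none. Of the ADAMTS-like genes, whose products lack the protease domain, ADAMTSL1 had 55 in a body of 1004 kb, THSD4 had 22 and PAPLN had 1. ADAMTSL2, ADAMTSL3 (385.8 kb), ADAMTSL4 and ADAMTSL5 had none. Membrane ADAM genes had intervals in 5 of 8 cases, led by ADAM12 with 17, ADAM9 with 15 and ADAM10 with 14. Of the genes for activation of the proteases, PLAT had 1 and PLAU, PLAUR, PLG and FURIN had none. Of the ADAMTS substrates, VCAN had 6 (3 SOX2-only, 2 shared, 1 DBD-only), and ACAN, BCAN, NCAN and COMP had none. Of the tolloid genes, TLL1 had 9, TLL2 had 3 and BMP1 had none. ADAMTSL1 alone held 55 of the 161 intervals of this list.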

How the data were processed

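Peak lists of V5 CUT&RUN were analysed. Per the submitters' processing notes, Bowtie2 2.3.4.1, SAMtools, bedtools 2.27.1, SEACR 1.3, deepTools 3.5.0 and hg19 were used, with roles, thresholds and pooling not given in the sources used here. The deposited signal of an interval (total and maximum) has no stated normalization, and sequencing depth is unknown. Column 7 of the SOX2 list is a deposited score of no stated meaning. Exact duplicate rows (1654 in each of the SOX2 and SOX2-DBD lists) were counted once, leaving 57907 and 15220 intervals. The down-sampled list (38291) carries no signal. No interval reached beyond a chromosome end of GRCh37.

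Windows, classes, densities and motifs were computed with pandas 2.3.3, scipy 1.17.1, numpy 2.4.6 (python 3.11.15), pyfaidx 0.9.0.4 and samtools 1.23.1, plots with matplotlib 3.10.9, and the overlap code was tested on simulated data. The members, lists and tests were chosen with earlier results of these data known. All 40 members were counted. One gene of the wider list of matrix proteolysis genes is not reported here by name. Described in full were the 8 with most intervals, the 4 of highest density among those with 3 or more intervals, those with a DBD-only interval or an interval within 1 kb of a start, and the cluster on chromosome 11. Sequences were chosen among intervals at a canonical start, shared intervals with both motifs and those of highest signal, with intervals on chromosome 8 left out. Samples of a group share labels, and nothing states that they came from separate cultures.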

Additional observations from a re-analysis of the deposited data

Results flagged for a closer look

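Column 7 of the SOX2 list enters none of the comparisons and has no stated meaning. It drew attention as a signal outside the main measurement. It was at least 1 in 15 of the 37 shared intervals at members (40.5%, Wilson 95% confidence interval 26.3 to 56.5) and in 34.5% of shared intervals in the series, a value inside that interval. The highest value at members was 2, in 3 intervals, at ADAMTS6, MMP16 and MMP20. The meaning of the column is unknown here.

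In the list made by down-sampling SOX2, which also enters no comparison above, there were 74 intervals in member windows, and 5 of them overlapped no interval of either full list. Of these 5, 3 lay in the ADAMTS3 window, 1 in that of ADAMTS6 and 1 in that of MMP10. How the list was made is not stated.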

How the results depend on the processing

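No paired analysis was possible because neither protein had a separate list for each replicate here. For the same reason no replicate could be left out. Of the values recomputed under the alternatives, 24 stayed within 1.5 times the count or within the 95% interval and 8 did not. The former included the number of members with an interval in every setting (19 to 32). With 40 members, a bound of 1.5 times is wide for that count, so it is a weak check. The share of protein-coding genes with an interval was not recomputed under these settings. Keeping the upper 50% of each list by total signal, a cut made within a list and across classes, left 67 intervals at members, 0.0149 per kb, as fewer intervals were counted. Windows of 50 kb gave 0.0232 per kb. With the down-sampled SOX2 list the shared portion was 21.6%, the density 0.0218 per kb and the DBD-only count 24 in place of 3, since 21 of the 37 shared intervals overlap nothing in that list. The SOX core share of the 123 SOX2 intervals was 46.3%, and it was 34.96% in 100-bp windows and 55.3% at the region of maximum signal. The AP-1 share was 9.76%, and 4.07% in 100-bp windows. The cause of these shifts was not tested, beyond shorter windows holding fewer motifs. The gene body alone gave 112 intervals at 21 members. MMP1, MMP8, MMP10, MMP11 and ADAMTS1, all with bodies under 25 kb, then had none. Sequencing depth is unknown, and its part in the counts was not tested.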

Other observations

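At members, 53 of 86 SOX2-only intervals (61.6%, 51.1 to 71.2) and 16 of 37 shared intervals (43.2%, 28.7 to 59.1) overlapped an interval of the down-sampled SOX2 list, beside 64.3% of both classes in the series. MMP16 contributed 1 of these 16, from 5 shared intervals. No test was made of the difference. At ADAMTS6, 15 down-sampled intervals stood against 28 in the full list, and at ADAMTS3 there were 11 against 11. These are not counts of the same intervals, since both down-sampled counts include intervals that overlapped none of either full list.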
